A study of Homo sapiens with 2 samples.

Results

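The genes described here are the nuclear-encoded subunit genes of the mitochondrial respiratory chain and ATP synthase, measured in ZNF263 knockout (KO) and wild-type (WT) H1 human embryonic stem cells. They were chosen by symbol, as the NDUFA, NDUFB, NDUFC, NDUFS, NDUFV, UQCR, COX4I, COX5, COX6, COX7, COX8, ATP5F, ATP5M and ATP5P families with SDHA, SDHB, SDHC, SDHD and CYC1. Pseudogenes, antisense rows and the NDUFAF assembly factors were left out. The rule found 86 of the 33592 genes listed in at least 1 of the libraries, of which 39 belong by symbol to complex I, 4 to complex II, 10 to complex III, 15 to complex IV and 18 to complex V. The rule uses no measured value.

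H1, also called WA01, is an established line of human embryonic stem cells, which are pluripotent. ZNF263 encodes a zinc finger transcription factor. The KO cells were H1 cells homozygous for a ZNF263 deletion made with Cas9, and the WT cells were H1 cells that carry no such deletion. The labels do not say whether the KO cells are 1 clone. Each genotype was measured in 1 library, in which polyadenylated RNA of single cells was captured on barcoded beads in microwells and counted by unique molecular identifiers (UMIs).

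The respiratory chain passes electrons from NADH (complex I) and succinate (complex II) through complex III to oxygen at complex IV, while complexes I, III and IV pump protons out of the mitochondrial matrix. Complex V, the ATP synthase, lets the protons flow back and makes ATP. Complexes I, III, IV and V combine subunits from nuclear genes with subunits made inside the mitochondrion from its own genome, whereas complex II is made wholly from nuclear genes. Human pluripotent stem cells are known for high glycolysis beside an active respiratory chain.

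A barcode was kept as a cell if it reached 1000 UMIs and 500 genes with no more than 20% of its UMIs from the mitochondrial genome, which gave 2286 KO and 2935 WT cells with medians of 1289.5 and 1328 UMIs. UMIs were summed over the kept cells of a library and scaled to CPM, the UMIs of a gene in every 1000000 UMIs, over 3567881 KO and 4650391 WT UMIs. A CPM value is therefore a share of the captured RNA and not an amount per cell. The kept cells hold 6.54% of the KO and 7.68% of the WT library's UMIs, and 20 barcodes were kept in both libraries. Mitochondrially encoded RNA made up 5.45% of kept KO UMIs against 4.58% of kept WT UMIs, and cytosolic ribosomal protein genes 24.6% against 22.2%. ZNF263 itself held 27 KO and 83 WT UMIs, or 7.57 and 17.8 CPM. All 8 pluripotency markers summed to 3749 CPM in KO and 3056 CPM in WT cells, of which L1TD1 made up 1871 and 1437 CPM. Of these markers 7 had a mean of at least 20 CPM, and 5 of the 7 were higher in KO cells. The other 2 were lower, SOX2 with 292 CPM in KO and 321 CPM in WT cells and LIN28A with 757 and 801 CPM. Neuroectoderm markers summed to 44.6 CPM in KO and 192 CPM in WT cells, and primitive streak and endoderm markers to 14.3 and 38.3 CPM. Fibroblast markers summed to 419 CPM in KO and 307 CPM in WT cells, of which THY1, which pluripotent cells also express, made up 361 and 248 CPM, while DCN was at 0 UMIs in both libraries. The part of these differences in the results below was not tested.

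Because each genotype has a single library, differences between them have no replicate check and were not tested. Intervals are at the 95% level, cover counting error only and say nothing of how cultures, clones or libraries vary. Ratios are log2 ratios of CPM, KO over WT, so a positive value means a higher level in the KO library. A gene counted as measured with a mean of at least 20 CPM over both libraries, which 5710 genes of all kinds and 76 of the 86 members reached. The median log2 ratio of those 5710 genes was -0.12 and not 0, so a member at 0 lay above the typical gene. Because 2 libraries always differ somewhat, sizes of at least 1.2-fold and 1.5-fold were used to describe members, beside the share of all measured genes past the same size.

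The promoters of 5 members with differences described further on are printed first. They are COX5A, COX7B, COX7C and COX8A of complex IV, each at least 1.2-fold higher in KO cells, and NDUFB8 of complex I, which had the lowest ratio. For ATP5MC3, which had the highest ratio of all members, no promoter was given. Each sequence is RefSeq's for GRCh38.p14, written 5′ to 3′ on the strand of the gene, and holds the 250 bases before the annotated start. Capitals mark matches to the motifs described in the next paragraph. COX5A covers chr15:74938074-74938323 (minus strand), COX7B chrX:77899218-77899467 (plus strand), COX7C chr5:86617691-86617940 (plus strand), COX8A chr11:63974370-63974619 (plus strand) and NDUFB8 chr10:100529924-100530173 (minus strand).
COX5A: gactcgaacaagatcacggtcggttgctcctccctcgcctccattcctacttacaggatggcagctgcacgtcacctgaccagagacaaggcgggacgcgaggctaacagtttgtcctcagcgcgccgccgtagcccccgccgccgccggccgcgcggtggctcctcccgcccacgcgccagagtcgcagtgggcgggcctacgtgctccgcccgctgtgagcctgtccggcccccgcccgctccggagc
COX7B: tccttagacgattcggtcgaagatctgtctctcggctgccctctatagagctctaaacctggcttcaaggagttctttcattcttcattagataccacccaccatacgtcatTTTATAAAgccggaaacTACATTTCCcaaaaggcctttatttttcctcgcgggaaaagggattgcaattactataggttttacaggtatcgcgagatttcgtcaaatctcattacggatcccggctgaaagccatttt
COX7C: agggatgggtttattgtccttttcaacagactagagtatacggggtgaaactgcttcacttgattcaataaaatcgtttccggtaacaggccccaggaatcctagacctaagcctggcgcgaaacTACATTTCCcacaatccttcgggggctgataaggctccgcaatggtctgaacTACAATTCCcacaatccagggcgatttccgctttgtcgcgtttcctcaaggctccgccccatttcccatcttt
COX8A: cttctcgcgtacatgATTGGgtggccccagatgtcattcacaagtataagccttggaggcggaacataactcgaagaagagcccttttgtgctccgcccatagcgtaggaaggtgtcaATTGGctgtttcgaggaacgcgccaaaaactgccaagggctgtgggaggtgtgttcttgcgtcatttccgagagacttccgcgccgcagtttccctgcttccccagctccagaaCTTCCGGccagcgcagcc
NDUFB8: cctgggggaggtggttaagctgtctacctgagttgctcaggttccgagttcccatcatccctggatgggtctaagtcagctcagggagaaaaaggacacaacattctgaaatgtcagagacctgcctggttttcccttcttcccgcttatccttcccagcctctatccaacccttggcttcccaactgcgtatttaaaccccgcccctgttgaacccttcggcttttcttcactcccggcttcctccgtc

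RefSeq promoters, from 250 bases before to 50 bases after the start, were given for 67 of the 86 members and were searched on both strands with exact letters. CCGGAAG, the core bound by ETS factors such as GABPA, which is known to act at many respiratory chain genes, was found in 20 members (29.9%), against 10.7% of all 27305 promoters and 23.6% of the 4556 promoters of measured genes. GCGCATGCG, from the site of nuclear respiratory factor NRF1, was found in 10 members (14.9%, against 2.10% of all and 4.68% of measured genes' promoters), among them ATP5MC2, ATP5ME, COX6A1 and NDUFS7. AAGATGGCG, from a YY1 site, was found in 8 members (11.9%, against 1.85% and 5.62%). GGAGGAGG, a repeat of the G-rich kind that ZNF263 is known to bind, was found in 2 members (2.99%, against 10.4% and 12.8%). CCAAT was found in 23 members (34.3%, against 35.7% and 39.2%), and TATAAA in 7 (10.4%, against 11.95% and 4.70%).

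TACANTTCC, from the element known to be bound by ZNF143, was added to the search after the sequences had been read. It matched in 3 members (4.48%), COX7B, COX7C and ATP5PO, against 1.67% of all promoters and 2.55% of those of measured genes. Because the letters were chosen with these promoters in view, the shares are a description and not a test. ATP5PO was not among the higher members, with a log2 ratio of -0.03 (interval -0.10 to 0.05). It shares 70.3% of its exon bases with AP000311.1, a gene on the same strand, so its count is uncertain. Counted from the start, COX7C holds copies that begin at -125 and -73, and COX7B holds 1 that begins at -121. In COX7B 2 overlapping TATAAA matches on opposite strands lie just before that element, and a CCAAT on the minus strand lies at 35, outside the printed stretch. COX8A holds a CCGGAAG on the minus strand at -18 and 2 CCAAT matches on the minus strand. The promoters of COX5A and NDUFB8 hold none of the 7 motifs searched. A match is a description of letters, and no match says only that these letters are not in the window.

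Over all complexes, the members' levels were close to each other in the 2 libraries. Their UMIs summed to 33705 CPM in KO and 32154 CPM in WT cells, a log2 ratio of 0.07 (interval 0.06 to 0.08). Among the 76 measured members 43 were higher in KO cells and 33 lower, so that 56.6% were higher, against 34.3% of all measured genes. Their median log2 ratio was 0.02 (interval -0.02 to 0.06, from the order of the members). At least 1.2-fold higher were 7 members, 9.21% of those measured, against 9.81% of all measured genes. At least 1.2-fold lower were 8 members, 10.5%, against 29.7% of all measured genes. The other 61 lay within 1.2-fold. Past 1.5-fold, 0 members were higher and 1, NDUFB8, was lower, against 1.98% and 6.51% of all measured genes.

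The median interval of a single member reached 0.11 to either side on the log2 scale. Read against the median of all genes, 58 members lay above it and 18 below. On that scale 16 members passed 1.2-fold upwards and 4 downwards, against 17.8% and 18.2% of all measured genes, and 15 members that were lower on the CPM scale changed sign. At 1.5-fold 1 member, ATP5MC3, was higher and 0 were lower, against 3.54% and 3.66% of all measured genes.

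**Figure D1:**
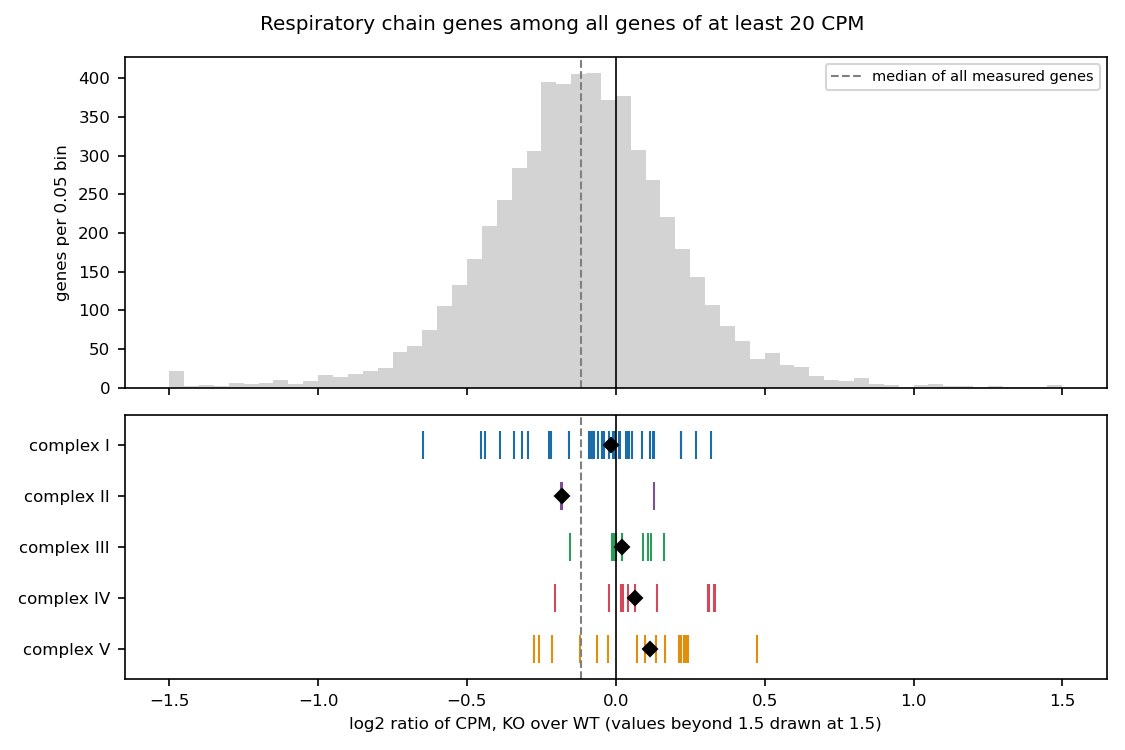
Log2 ratio of CPM, KO over WT, of all 5710 measured genes (top, genes per bin of 0.05; values beyond 1.5 are drawn at 1.5) and of each measured member (bottom, 1 tick a gene, black diamond the median of the complex). The dashed line is the median of all measured genes, -0.12. The members span -0.65 to 0.47, and the medians of complexes III, IV and V lie to the right of both lines.

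Members are short and abundant, and both properties went with the ratio over all genes. The median transcript length was 750 bases for measured members and 2432 for all measured genes, lengths being known for 94.3% of these from GENCODE. Over all genes the median log2 ratio was 0.01 for transcripts under 500 bases, 0.03 from 500 to under 700, -0.00 from 700 to under 1000, -0.08 from 1000 to under 2000 and -0.16 at 2000 bases and more. By level it was -0.15 from 20 to under 100 CPM, -0.07 from 100 to under 200, -0.05 from 200 to under 500 and 0.06 at 500 CPM and more. Among the 369 genes that are both under 1000 bases and at 100 CPM or more, the median was 0.04, and for the 50 members among them it was 0.03. Of these 369 genes 60.2% were higher in KO cells, and of the 50 members 30 were. With members and cytosolic ribosomal protein genes left out, 263 genes remained in that class, with a median of 0.02 and 55.9% higher. At 500 CPM and more 59.5% of all genes were higher. The 34.3% of all measured genes that were higher is therefore not a share matched for length or level.

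The complexes were not all alike, and complex IV had the highest ratio. Cytochrome c oxidase, complex IV, summed to 8713 CPM in KO and 7715 CPM in WT cells, a log2 ratio of 0.18 (interval 0.15 to 0.20). The ATP synthase, complex V, summed to 8812 CPM in KO and 8365 CPM in WT cells, at 0.07 (interval 0.05 to 0.10). Complex III had 4856 CPM in KO and 4647 CPM in WT cells, at 0.06 (interval 0.03 to 0.09). Complex I was level, with 11113 CPM in KO and 11203 CPM in WT cells, at -0.01 (interval -0.03 to 0.01). Complex II was the least abundant, with 211 CPM in KO and 224 CPM in WT cells, at -0.08 (interval -0.22 to 0.05). The signs of complexes I and II depend on the scaling. Against the median of all genes, complex I was at 0.10 and complex II at 0.03.

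Ratios formed within each library do not depend on the scaling to CPM. Complex IV held 0.784 UMIs for each complex I UMI in KO cells, against 0.689 in WT cells, a log2 difference of 0.19 (interval 0.16 to 0.22). Complex IV over complex III differed by 0.11 (interval 0.08 to 0.15), and complex V over complex I by 0.09 (interval 0.06 to 0.12). Complex V over complex III was at 0.01 (interval -0.02 to 0.05) and complex II over complex I at -0.07 (interval -0.21 to 0.07). Both of these intervals hold 0. As shares of all member UMIs, complex IV took 25.9% in KO and 24.0% in WT cells, complex I 33.0% and 34.8%, complex V 26.1% and 26.0%, complex III 14.4% and 14.5%, and complex II 0.627% and 0.696%. A single gene can move such a sum. With any 1 member left out, the log2 ratio ranged from 0.12 to 0.20 for complex IV, from 0.04 to 0.11 for complex V, from 0.05 to 0.07 for complex III, from -0.03 to -0.00 for complex I and from -0.14 to 0.05 for complex II.

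**Figure D2:**
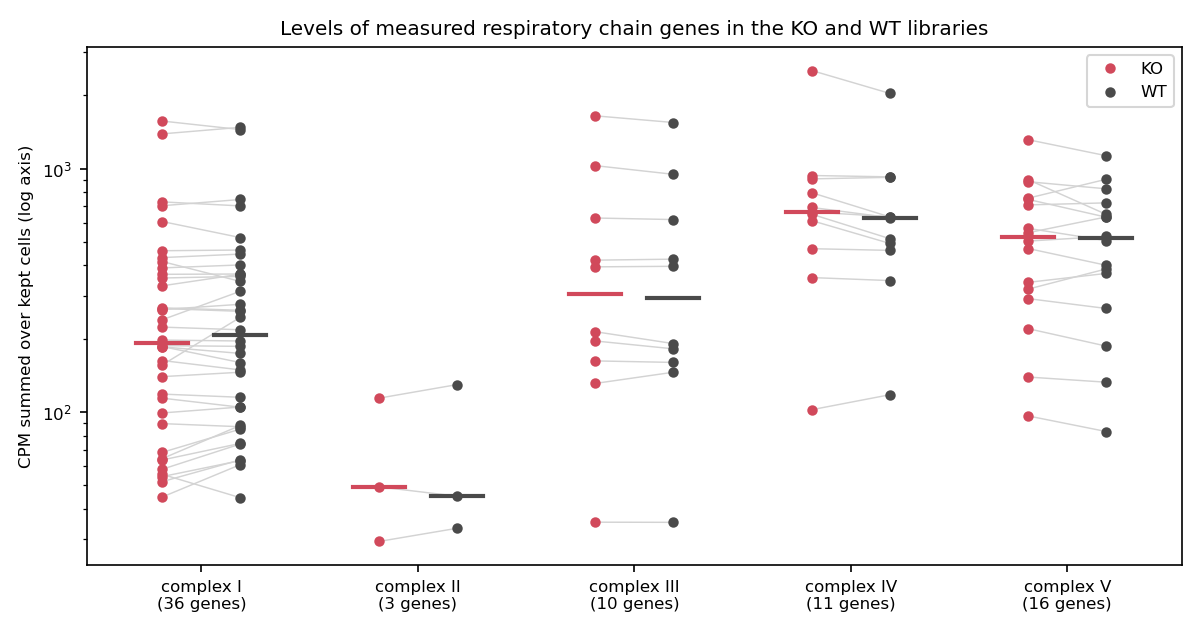
Level of each of the 76 measured members in CPM (log axis) in the KO library (left of each pair, red) and the WT library (right, grey), by complex. Grey lines join the values of 1 gene and bars are the medians of the complex. Most lines are nearly flat, and the level runs from 29.4 CPM in KO and 33.3 CPM in WT cells for SDHA to 2527 CPM in KO and 2036 CPM in WT cells for COX7C.

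Levels within a complex spanned wide ranges. Per kilobase of transcript, COX7C had 3794 CPM in KO and 3057 CPM in WT cells and ATP5ME, a small membrane subunit of the ATP synthase, 3599 and 3094 CPM. These were the highest members in both libraries. UQCRH, the hinge protein of complex III, followed among KO values at 2726 CPM per kilobase, against 2560 in WT cells, and NDUFS5, an accessory subunit of complex I, had 2544 in KO and 2705 in WT cells. At the other end NDUFA9, an accessory subunit of complex I had 12.3 CPM per kilobase in KO and 9.89 in WT cells. SDHA, the flavoprotein that oxidises succinate, had 14.0 in KO and 15.8 in WT cells. Lengths are medians over annotated transcripts, and a method that reads near the 3′ end depends less on length than this scale assumes.

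Complex I takes electrons from NADH and passes them to ubiquinone. Of its 36 measured members 16 were higher and 20 lower in KO cells, between -0.65 and 0.32, with 2 at least 1.2-fold higher and 7 at least 1.2-fold lower. The share higher was 44.4%, against 34.3% of all measured genes and 60.2% of the 369 short and abundant genes described above. That class does not hold every member of complex I. The shares at least 1.2-fold higher and lower were 5.56% and 19.4%, against 9.81% and 29.7% of all measured genes. The 7 core subunits, which carry the flavin and the iron-sulfur clusters and have counterparts in the bacterial enzyme, summed to 943 CPM in KO and 984 CPM in WT cells (log2 ratio -0.06, interval -0.13 to 0.00). Of these 5 were lower and 2 (28.6%) higher, against 34.3% of all measured genes that were higher. At least 1.2-fold lower were 3 (42.9%), against 29.7% of all measured genes, a share that with 7 genes turns on single members. Against the median of all genes the summed core was at 0.05. The 28 measured accessory subunits other than NDUFA4 had a median of -0.01.

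NDUFB8, an accessory subunit of the membrane arm, had the lowest ratio of all members. Its UMIs numbered 558 in KO and 1140 in WT cells, or 156 and 245 CPM, a log2 ratio of -0.65 (interval -0.80 to -0.50), which is 0.638-fold. Its level was lower in the KO library in each of the 4 ranges of mitochondrial share (between -0.71 and -0.55) and in each of 6 ranges of UMIs per barcode (between -0.76 and -0.64). At a mitochondrial share of 10 to 20%, NDUFB8 held 40 KO and 39 WT UMIs, and the interval there, -1.26 to 0.09, holds 0. In the annotation, 65.4% of its exon bases are shared with AL133352.1, a gene on the same strand, so its count is uncertain. The gene lies at chr10:100523729-100529923.

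Other lower members of complex I include core subunits. NDUFS7, which holds the last iron-sulfur cluster before ubiquinone, had 68.4 CPM in KO and 85.2 CPM in WT cells (-0.32, interval -0.55 to -0.08), and NDUFV1, which binds NADH and flavin, 51.9 and 63.7 CPM (-0.30, interval -0.57 to -0.03). Among accessory subunits, NDUFB3 had 44.8 CPM in KO and 60.9 CPM in WT cells (-0.44, interval -0.73 to -0.16). NDUFS4, known from inherited complex I deficiency, had 855 UMIs in KO and 1458 in WT cells (-0.39, interval -0.51 to -0.26), and NDUFA10 was at -0.34 (interval -0.60 to -0.09). Apart from NDUFB8 and NDUFS4 these named genes had at most 396 UMIs in a library, which the width of their intervals reflects.

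At the high end of complex I, NDUFA9 had 55.5 CPM in KO and 44.5 CPM in WT cells (0.32, interval 0.03 to 0.61). That ratio rests on few UMIs and was 0.10 with cells thinned to 1000 UMIs, 0.16 in barcodes of at least 100 UMIs and 0.53 in cells of at least 2000. NDUFAB1, the mitochondrial acyl carrier protein, had 415 CPM in KO and 344 CPM in WT cells (0.27, interval 0.17 to 0.37), and lay just within 1.2-fold, at 0.24, in cells of at least 500 UMIs. NDUFB9 had 606 CPM in KO and 521 CPM in WT cells (0.22). The most abundant by CPM were NDUFA4, with 1567 CPM in KO and 1446 CPM in WT cells (0.12, interval 0.06 to 0.17), and NDUFS5, with 1389 CPM in KO and 1477 CPM in WT cells (-0.09, interval -0.14 to -0.04). NDUFS5 changed sign, to 0.03, against the median of all genes. NDUFA4 was grouped by its symbol, but its protein is now placed in complex IV. Without it complex I was at -0.03 (interval -0.05 to -0.01), and with it complex IV was at 0.17 (interval 0.15 to 0.19).

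Complex II, succinate dehydrogenase, also works in the citric acid cycle. SDHA had 29.4 CPM in KO and 33.3 CPM in WT cells (-0.18, interval -0.55 to 0.19). SDHB, the iron-sulfur subunit, had 49.3 CPM in KO and 45.2 CPM in WT cells (0.13, interval -0.17 to 0.42). The membrane anchors SDHC and SDHD had 114 and 18.5 CPM in KO and 130 and 15.7 CPM in WT cells, at -0.18 (interval -0.37 to -0.00) and 0.24, and SDHD was below the level counted as measured. The counts of complex II, 754 KO and 1041 WT UMIs in all, allow no statement on a difference of this size. Pseudogene rows of SDHA held 51 KO and 58 WT UMIs beside its own 105 and 155.

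Complex III passes electrons from ubiquinol to cytochrome c. All 10 members were within 1.2-fold, between -0.15 and 0.16. Of all measured genes 9.81% were at least 1.2-fold higher and 29.7% at least 1.2-fold lower. CYC1, cytochrome c1, had 214 CPM in KO and 191 CPM in WT cells (0.16, interval 0.02 to 0.30), UQCRFS1, the Rieske iron-sulfur protein, was at 0.11 (interval -0.04 to 0.25), and UQCRB, a ubiquinone-binding subunit, had 1028 CPM in KO and 947 CPM in WT cells (0.12, interval 0.05 to 0.18). The core subunit UQCRC2 had 131 CPM in KO and 146 CPM in WT cells (-0.15, interval -0.33 to 0.02), UQCRQ and UQCR11 were each at -0.01, and UQCRH, the most abundant, had 1647 CPM in KO and 1546 CPM in WT cells (0.09, interval 0.04 to 0.14). The signs of UQCRQ and UQCR11 flip against the median of all genes, to 0.10 and 0.11. UQCRHL is a near copy of UQCRH, so the split of reads between them is uncertain.

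**Figure D3:**
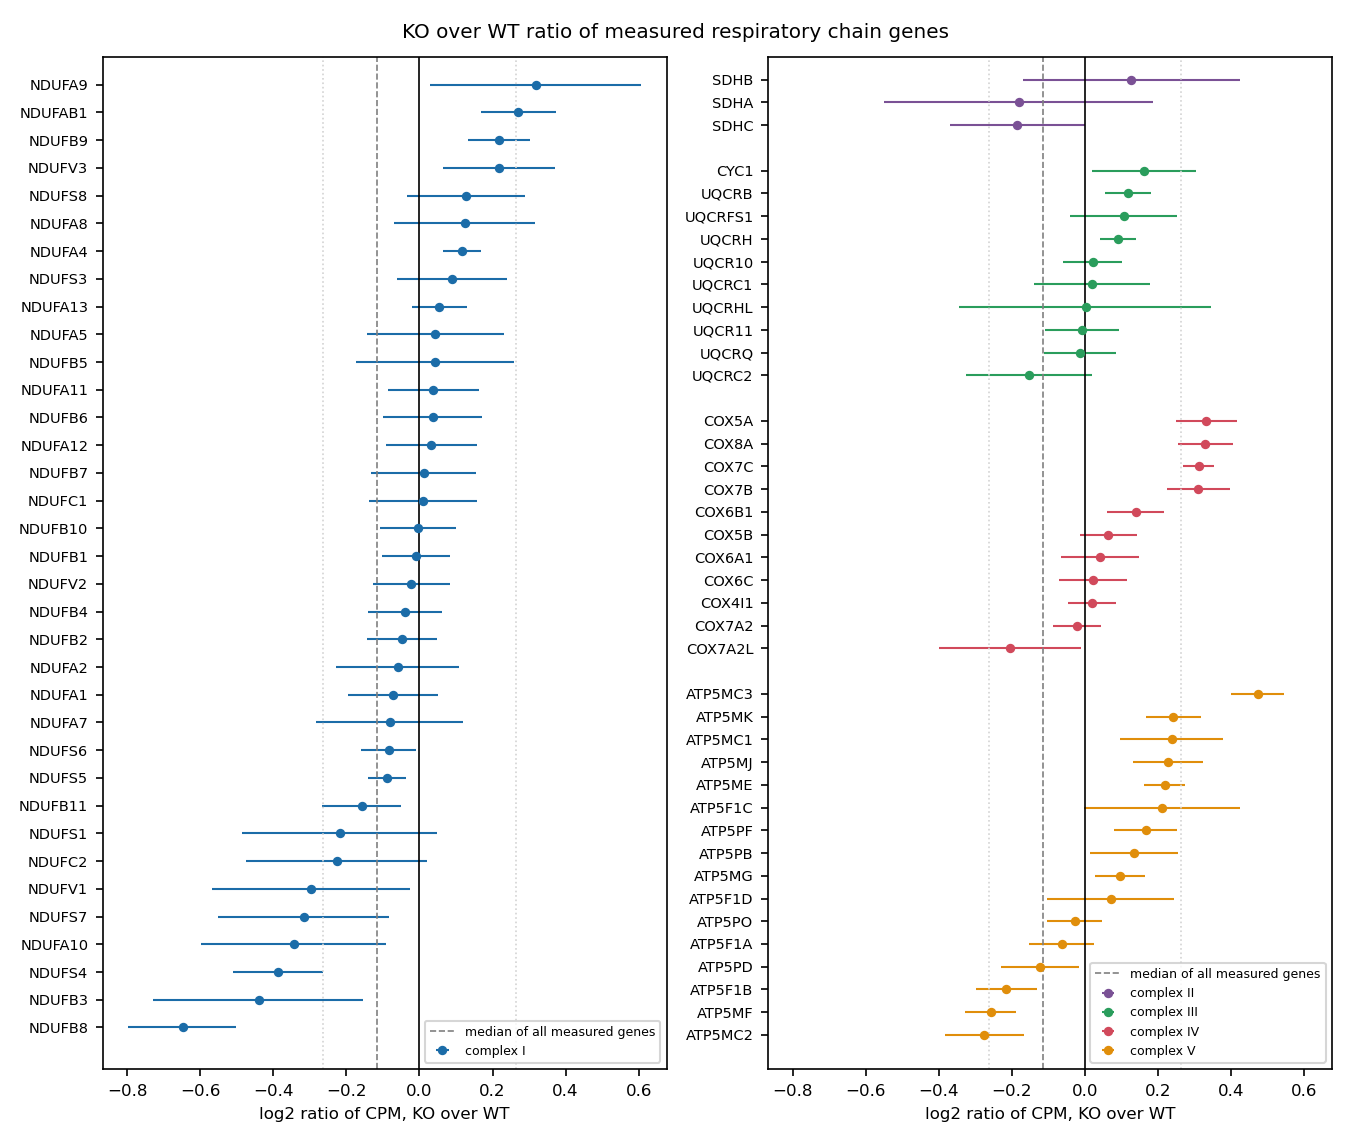
Log2 ratio of CPM, KO over WT, of measured members with its 95% counting interval, complex I on the left and complexes II to V on the right, sorted by ratio within a complex. The solid line is 0, the dashed line the median of all measured genes and the dotted lines 1.2-fold to either side. COX5A, COX8A, COX7C and COX7B lie together between 0.31 and 0.33 and apart from the other measured complex IV genes, and ATP5MC3, at 0.47, lies highest.

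Complex IV passes electrons to oxygen. Its catalytic core is made in the mitochondrion, and the nuclear genes add smaller subunits around it. The higher sum of complex IV came with 4 of its 11 measured members, COX5A, COX7B, COX7C and COX8A. These 4 (36.4%) were at least 1.2-fold higher and 0 were at least 1.2-fold lower, against 9.81% and 29.7% of all measured genes. COX5A, which sits on the matrix side, had 649 CPM in KO and 516 CPM in WT cells (0.33, interval 0.25 to 0.42). COX7B had 611 CPM in KO and 493 CPM in WT cells, from 2181 and 2292 UMIs (0.31, interval 0.23 to 0.40), and was at 0.26, just within 1.2-fold, with cells thinned to 1000 UMIs. COX7C, the member with the most UMIs, had 2527 CPM in KO and 2036 CPM in WT cells (0.31, interval 0.27 to 0.35), and COX8A had 796 CPM in KO and 633 CPM in WT cells (0.33, interval 0.25 to 0.40). The 4 ratios lay between 0.31 and 0.33, and the genes are on chromosomes 15, X, 5 and 11.

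Summed, these 4 genes had 4583 CPM in KO and 3678 CPM in WT cells, at 0.32 (interval 0.29 to 0.35). The other 7 measured complex IV members had 4128 CPM in KO and 4035 CPM in WT cells, at 0.03 (interval 0.00 to 0.06), and ranged from -0.20 to 0.14. Within each library the 4 genes held 1.11 UMIs for each UMI of the other 7 in KO cells and 0.911 in WT cells. The grouping was made after the values were seen, so its contrast is a description. COX8A shares 34.5% of its exon bases with AP000721.1, a gene on the same strand, and COX7C 4.30% with AC108110.1.

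Of those other 7, COX4I1, the general isoform of subunit IV, had 937 CPM in KO and 925 CPM in WT cells (0.02, interval -0.05 to 0.09), and its oxygen-responsive isoform COX4I2 had 0 UMIs in both libraries. COX6B1 was at 0.14 (interval 0.06 to 0.22), with 6 KO and 4 WT UMIs of the testis isoform COX6B2. COX7A2 had 907 CPM in KO and 921 CPM in WT cells (-0.02), the muscle isoform COX7A1 0 and 2 UMIs, and COX7A2L, a factor of respiratory supercomplexes, 102 and 118 CPM (-0.20, interval -0.40 to -0.01). COX6A1 was at 0.04 (interval -0.07 to 0.15), its muscle isoform COX6A2 held 1 UMI in each library, and pseudogene rows of COX6A1 held 30.7% of its own UMIs in KO and 35.7% in WT cells. COX6A1 shares 30.6% of its exon bases with AL021546.1, a gene on the same strand. COX7A2 is another sign that flips against the median of all genes, to 0.09. In these pairs the general isoform carried nearly all UMIs in both libraries.

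Complex V makes ATP. Of its 16 measured members 10 were higher and 6 lower in KO cells, with a median of 0.12. The share higher was 62.5%, against 34.3% of all measured genes and 60.2% of the 369 short and abundant genes described above. The catalytic F1 head summed to 1290 CPM in KO and 1381 CPM in WT cells (-0.10, interval -0.15 to -0.04), the lowest of its parts, and its catalytic beta subunit ATP5F1B had 545 CPM in KO and 633 CPM in WT cells (-0.21, interval -0.30 to -0.13). The gamma and delta subunits ATP5F1C and ATP5F1D were at 0.21 (interval -0.00 to 0.43) and 0.07 (interval -0.10 to 0.24). Against the median of all genes the summed F1 head was at 0.02. The peripheral stalk was at 0.03 (interval -0.01 to 0.08), and 5 other membrane subunits summed to 4169 CPM in KO and 3892 CPM in WT cells (0.10, interval 0.07 to 0.13). Of these ATP5ME was at 0.22 (interval 0.16 to 0.28), ATP5MK at 0.24 (interval 0.17 to 0.32) and ATP5MG at 0.10, while ATP5MF had 756 CPM in KO and 904 CPM in WT cells (-0.26, interval -0.33 to -0.19). Pseudogene rows of ATP5MF held 19.6% of its own UMIs in KO and 21.6% in WT cells. ATP5MF shares 22.4% of its exon bases with ATP5MF-PTCD1, a gene on the same strand.

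The c subunit, the ring that turns as protons pass, is encoded by 3 genes whose mature proteins are known to be identical, and these genes went different ways. ATP5MC3 had the highest ratio of all members, with 3211 UMIs in KO and 3016 in WT cells, or 900 and 649 CPM (0.47, interval 0.40 to 0.54), which is 1.39-fold. ATP5MC2 had 1142 UMIs in KO and 1801 in WT cells, or 320 and 387 CPM (-0.27, interval -0.38 to -0.17), and lay within 1.2-fold with cells thinned to 1000 UMIs (-0.21) and against the median of all genes (-0.16). ATP5MC1 had 220 CPM in KO and 187 CPM in WT cells (0.24, interval 0.10 to 0.38). Together the 3 genes had 1440 CPM in KO and 1222 CPM in WT cells (0.24, interval 0.18 to 0.29).

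Of all c subunit UMIs, ATP5MC3 made up 62.5% in KO cells (exact binomial interval 61.2% to 63.8%) and 53.1% in WT cells (51.7% to 54.4%). ATP5MC2 made up 22.2% in KO (21.1% to 23.4%) and 31.7% in WT cells (30.5% to 32.9%), while ATP5MC1 made up 15.3% in both. Within each library there were 2.81 ATP5MC3 UMIs for each ATP5MC2 UMI in KO cells and 1.67 in WT cells, a log2 difference of 0.75 (interval 0.62 to 0.88) that does not depend on the scaling. ATP5MC3 lies at chr2:175176258-175181710, ATP5MC2 at chr12:53665170-53681423 and ATP5MC1 at chr17:48892787-48895871. Pseudogene rows of ATP5MC2 held 45 KO and 86 WT UMIs, and no row matched ATP5MC3 as a pseudogene by symbol.

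Of the 10 members below the level counted as measured, 6 are tissue-restricted isoforms or near copies: COX4I2, COX6A2, COX6B2, COX7A1, NDUFA4L2 and ATP5MGL, each with at most 13 UMIs in a library. NDUFA3 had 8 UMIs in KO and 7 in WT cells, NDUFA6 17 and 15, and ATP5F1E, the epsilon subunit of the F1 head, 17 and 27, although all 3 belong to the complexes of every cell. A pseudogene row of ATP5F1E held more UMIs than the gene, 32 in KO and 46 in WT cells. The counts of these 3 genes are uncertain. Over all members, 95 pseudogene rows of 40 members held 1663 KO and 2538 WT UMIs, which is 1.38% and 1.70% of the members' own.

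The 2 libraries differed in the mitochondrially encoded share of their cells, and the ratios were therefore also formed within ranges of that share, per UMI of other genes. KO cells were spread as 22.0% under 2%, 26.2% at 2 to 5%, 43.7% at 5 to 10% and 8.05% at 10 to 20%, and WT cells as 26.7%, 32.8%, 36.3% and 4.19%. Complex IV was higher in KO cells in each range, at 0.10, 0.14, 0.22 and 0.15 from the lowest to the highest. Complex V was higher in each range as well, between 0.06 and 0.10, and complex III between 0.01 and 0.13. For complex III the intervals under 2% and at 10 to 20% hold 0. Complex I was lower in the 2 low ranges, at -0.07 (interval -0.11 to -0.04) and -0.04 (interval -0.08 to -0.00). In the 2 high ranges it was at 0.03 (interval -0.00 to 0.06) and 0.05 (interval -0.03 to 0.13), and both of these intervals hold 0. ATP5MC3 lay between 0.41 and 0.54 and COX7B between 0.22 and 0.47 over the 4 ranges.

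**Figure D4:**
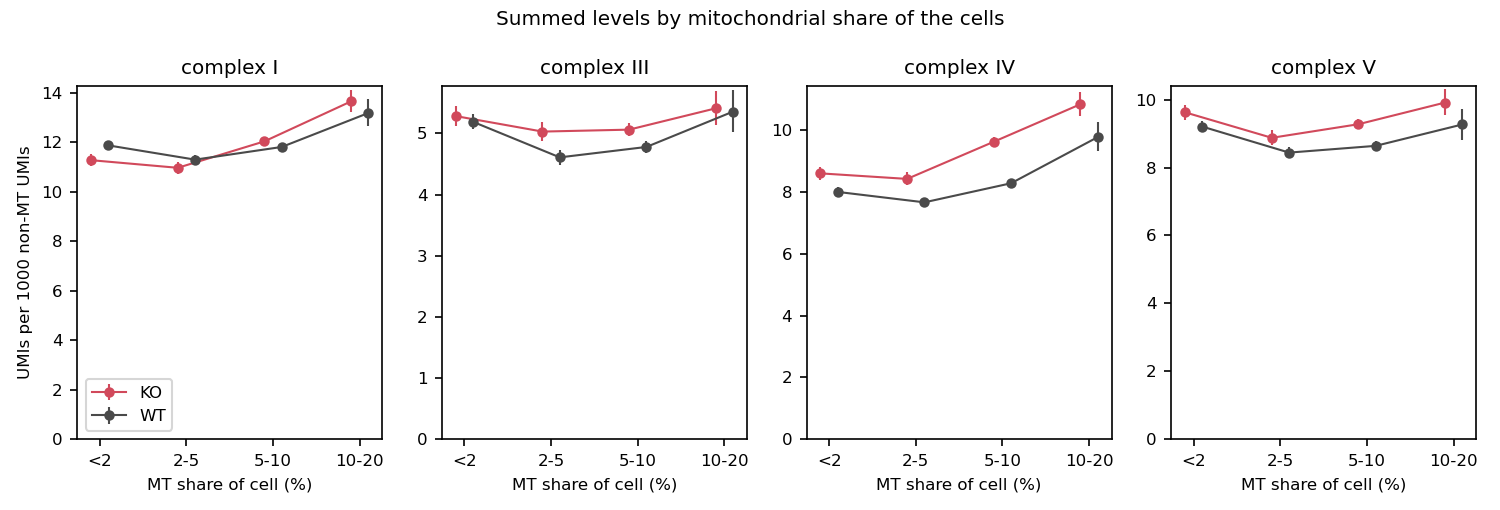
Summed level of complexes I, III, IV and V, in UMIs per 1000 UMIs that are not mitochondrially encoded, in KO cells (red, left of each pair) and WT cells (grey, right) by the mitochondrially encoded share of the cell. Bars are 95% counting intervals. In complex IV the KO values lie above the WT values in all 4 ranges. In complex I they lie below in the 2 low ranges, while the intervals of the ratios in the 2 high ranges hold 0.

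Most UMIs of both libraries lie in barcodes that were not kept, and these offer another reading of the same libraries, though not of another culture, that the choice of cells did not use. In the 122956 KO and 134720 WT barcodes with 100 to under 1000 UMIs, 60 of the 76 measured members (78.9%) had the same sign as in the kept cells, against 83.9% of all measured genes. The 7 members at least 1.2-fold higher in kept cells were all higher there, between 0.15 and 0.47, 6 of them past 1.2-fold. The 8 members at least 1.2-fold lower were all lower, between -0.73 and -0.17, 5 of them past 1.2-fold. These members were picked by their ratios in the same libraries, so their shared signs are a description and no check. Over 6 ranges, the lowest from 10 to under 100 UMIs and the highest at 2000 and more, complex IV lay between 0.16 and 0.18, complex V between 0.05 and 0.10, complex III between 0.03 and 0.08 and complex I between -0.02 and 0.00. In barcodes of the lowest range, of which there were 565594 in the KO and 583137 in the WT library, members summed to 34236 CPM in KO and 32421 CPM in WT. At that depth barcodes with cells and barcodes with free RNA cannot be told apart.

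**Figure D5:**
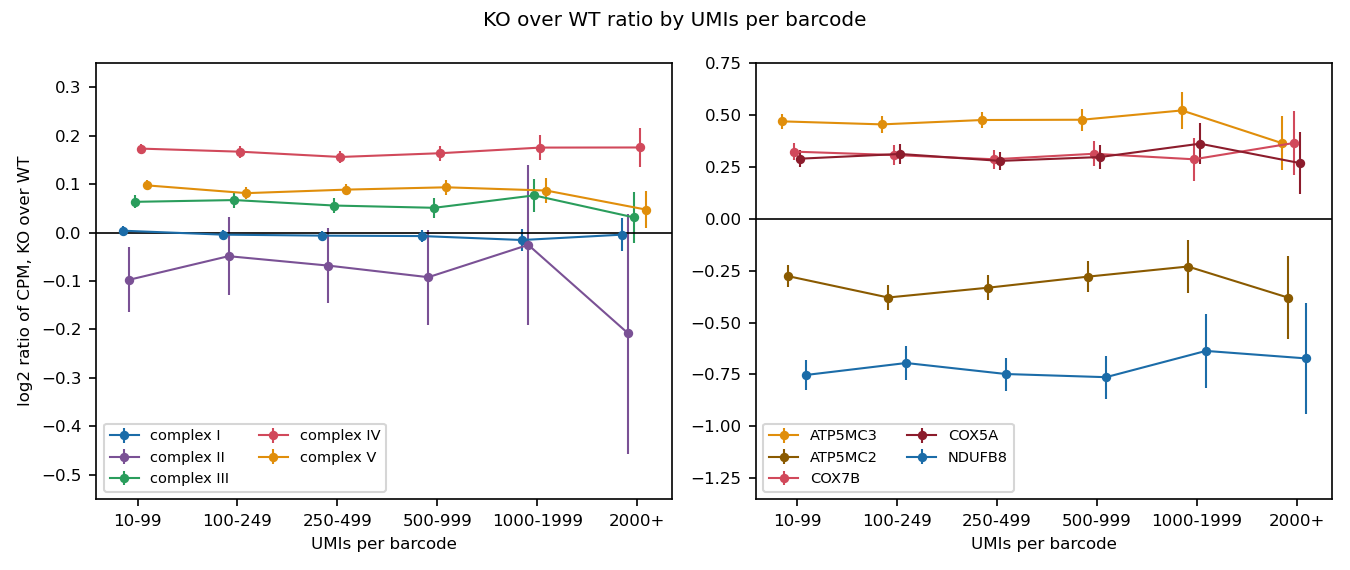
Log2 ratio of CPM, KO over WT, by UMIs per barcode, for the summed complexes (left) and 5 named members (right), with 95% counting intervals. Complex IV stays between 0.16 and 0.18 and ATP5MC3 between 0.36 and 0.52 in every range, and NDUFB8 between -0.76 and -0.64.

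Between single cells, members were compared at equal depth. With every cell thinned at random to 1000 UMIs, KO cells held a mean of 33.8 member UMIs and WT cells 32.3. The middle 90% of cells lay between 22 and 46 in KO and between 20 and 45 in WT cells, and the variance over the mean was 1.57 and 1.67, where counting error alone gives 1. Complex IV averaged 8.69 UMIs in KO and 7.75 in WT cells, complex V 8.90 and 8.36, complex I 11.1 and 11.3, and complex III 4.89 and 4.69. The variance over the mean of complex IV was 1.23 in both libraries. For comparison, mitochondrially encoded genes had 21.1 in KO and 19.98 in WT cells.

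The sums of the partner subunits from the mitochondrial genome did not follow the same order of complexes, though single genes weigh on these sums. Mitochondrially encoded subunits of complex V, MT-ATP6 and MT-ATP8, had the highest summed ratio, with 4764 CPM in KO and 3585 CPM in WT cells (0.41, interval 0.38 to 0.44). They went different ways, MT-ATP6 at 0.48 (interval 0.45 to 0.52) and MT-ATP8 at -0.31 (interval -0.41 to -0.20), although they share a transcript and overlap, so the split of reads between them is uncertain. The 7 complex I partners summed to 14612 CPM in KO and 13222 CPM in WT cells (0.14, interval 0.13 to 0.16). They held the highest and the lowest of the 13 genes, MT-ND3 at 1.00 (interval 0.95 to 1.05) and MT-ND6, the mRNA encoded on the light strand, at -0.36 (interval -0.42 to -0.31). MT-ND3 made up 2109 CPM of their sum in KO and 1055 CPM in WT cells, so much of the difference in that sum lies in 1 gene. MT-ND1 and MT-ND4L were at 0.28 and 0.30, and MT-ND2, MT-ND5 and MT-ND4 at 0.07, 0.03 and -0.04. Partner sums without single genes were not formed. The 3 complex IV partners were at 0.13 (interval 0.11 to 0.14) and MT-CYTB, of complex III, at 0.06 (interval 0.02 to 0.10).

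Of 49 assembly factors 34 were measured, with a median of -0.00, 6 at least 1.2-fold higher and 4 at least 1.2-fold lower, which is 17.6% and 11.8%, against 9.81% and 29.7% of all measured genes. COA6, a copper-handling factor of complex IV, had 180 CPM in KO and 125 CPM in WT cells (0.53, interval 0.37 to 0.70), and LYRM7, which guards the Rieske protein before it enters complex III, had 79 UMIs in KO and 178 in WT cells (-0.79, interval -1.19 to -0.40). Of the electron carriers and inhibitors of the chain 5 of 14 were measured. ATP5IF1, the inhibitor of ATP synthase running backwards, was at 0.25 (interval 0.18 to 0.32), and COQ5, of ubiquinone synthesis, at -0.33 (interval -0.79 to 0.12). Of 17 regulators of mitochondrial biogenesis 9 were measured, with a median of 0.04, 0 at least 1.2-fold higher and 2 (22.2%) at least 1.2-fold lower, between PPRC1 at -0.45 (interval -0.84 to -0.06) and TFB1M at 0.20 (interval -0.15 to 0.56).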

How the data were processed

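RNA of single cells was counted in 1 KO and 1 WT library of H1 cells. The authors deposited whole-number UMI counts per gene and barcode, with no normalization, per the file headers and values. Per the submitters' processing notes, STAR 2.7.10a, Subread with featureCounts 2.0.1 and UMI-tools 1.1.2 were used with hg38, without a stated role. Neither the gene annotation nor the strand setting is given in the sources used here, so reads of overlapping genes and near copies may be split. The KO table holds 15 entries more than its header states, and all were read.

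Barcodes were kept from 1000 UMIs and 500 genes upwards if mitochondrially encoded UMIs were 20% or less. Counts were summed per library and scaled to CPM. Levels have exact Poisson intervals, ratios exact conditional binomial intervals, shares exact Clopper-Pearson intervals and ratios of sums within a library normal intervals on the log scale, all for counting error only. No p-value was computed, since cells of 1 library are not replicates. Doublets were not called. An alternative left out cells over 4 times their library's median UMIs. For values per cell each cell was thinned to 1000 UMIs, which left out 0 cells. Functions were tested on simulated data. Lengths and exon overlaps came from GENCODE, positions of 84 members and promoters from RefSeq for GRCh38.p14. Python 3.11.15, NumPy 2.4.6, SciPy 1.17.1 and pandas 2.3.3 were used.

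Members and lists were chosen with earlier results of these data known. Named were ATP5MC3, COX7B, the SDH genes, CYC1, isoform pairs, and in each complex the 3 highest and 3 lowest ratios and the 2 highest levels. Of each other list the highest and lowest ratio were named. Any further gene was named with its values already seen. List entries UQCC4, UQCC5, UQCC6 and SCO2 matched no row by symbol. A single gene is in the sums and counts but is not reported here by itself.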

Additional observations from a re-analysis of the deposited data

How the results depend on the processing

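The sums of all members and of each complex, the members' median, the counts past 1.2-fold and the ratios of 36 members were recomputed under other cell filters, scalings and counts. Sums of parts of a complex, ratios and shares within a library, other members and other lists were not. Against the median of all genes the log2 ratio was 0.18 for all members, 0.10 for complex I, 0.18 for complex III, 0.29 for complex IV and 0.19 for complex V, the members' median was 0.14, and 16 members were at least 1.2-fold higher and 4 lower. With CPM formed without mitochondrially encoded and cytosolic ribosomal protein genes, these values were 0.13, 0.055, 0.13, 0.24 and 0.14, with a median of 0.087, and 15 and 5 members, and 11 members that were lower turned higher. Cells of at least 2000 UMIs alone gave 0.031 for complex III, 0.047 for complex V and -0.21 for complex II, which was within its wide interval. With members of at least 1 UMI in each library in place of a minimum level, 11 were at least 1.2-fold higher. With all barcodes of at least 100 UMIs, an alternative added after seeing the data, 5 were at least 1.2-fold lower. The cause of these moves was not tested, apart from the scalings, which add 1 constant to every log2 ratio. Over all alternatives complex IV ranged from 0.16 to 0.29 and complex I from -0.03 to 0.10. Of 396 values of named members, 354 moved by less than their counting interval and 42 by more, of which 23 were under centring on the median. COX7B ranged from 0.26 to 0.43, ATP5MC3 from 0.36 to 0.59, ATP5MC2 from -0.38 to -0.16 and NDUFB8 from -0.73 to -0.53. Leaving out the 20 barcodes kept in both libraries, also added after seeing the data, or adding pseudogene UMIs to their parents moved no sum beyond its interval. No paired analysis was possible because each genotype has 1 library, and for the same reason no replicate could be left out. Depth limits complex II and the members under 100 CPM most, whose intervals are the widest.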

Other observations

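Other mitochondrial and metabolic genes were described from the same sums. Of 17 measured protein import genes 15 (88.2%) were higher in KO cells at any size, against 34.3% of all measured genes, with a median of 0.08. At least 1.2-fold higher were 2 (11.8%) and lower 1 (5.88%), against 9.81% and 29.7% of all measured genes. TOMM7, a small subunit of the outer membrane import pore, had 790 CPM in KO and 600 CPM in WT cells (0.40, interval 0.32 to 0.47), and TIMM17B, of the inner membrane translocase, 64.5 and 83.0 CPM (-0.36, interval -0.61 to -0.13). Of 68 measured genes of the mitochondrial ribosome 41 (60.3%) were higher and 27 lower, with a median of 0.05. At least 1.2-fold higher were 11 (16.2%) and at least 1.2-fold lower 3 (4.41%). MRPS21, of its small subunit, had 618 CPM in KO and 401 CPM in WT cells (0.62, interval 0.53 to 0.71), and MRPL38 was at -0.34 (interval -0.67 to -0.00). The medians of both lists were above that of all measured genes, as was that of the 78 measured cytosolic ribosomal protein genes, at 0.11. Of the 369 short and abundant genes described above 60.2% were higher, with a median of 0.04. The comparisons of these lists with all measured genes are not matched for length or level.

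Citric acid cycle genes had a median of -0.09 over 14 measured, with 0 at least 1.2-fold higher and 3 (21.4%) at least 1.2-fold lower. SUCLA2 had 87 UMIs in KO and 165 in WT cells (-0.54, interval -0.93 to -0.16), while SUCLG1, its partner in succinyl-CoA ligase, was at 0.25 (interval 0.05 to 0.45). Of 17 measured glycolysis genes 4 (23.5%) were higher in KO cells and 13 lower, where 34.3% of all measured genes were higher, and their median was -0.38 (interval -0.52 to -0.19). At least 1.2-fold higher were 0 and at least 1.2-fold lower 10 (58.8%), against 9.81% and 29.7% of all measured genes. Their extremes were SLC2A1, the glucose transporter GLUT1, at -0.77 and PGAM1 at 0.20. The sum of the glycolysis list was 9656 CPM in KO and 11034 CPM in WT cells (-0.19, interval -0.21 to -0.17).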
